A study of Drosophila melanogaster with 6 samples.

Results

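The odorant-binding protein (*Obp*) genes of *Drosophila melanogaster* were examined in RNA-seq libraries from whole larvae with a knockdown of *Dctn1*. Every row of the deposited expression table whose gene symbol starts with Obp followed by a digit was taken, which gave 49 of the 13858 genes in the table. The OBP gene *lush*, which bears another style of name, falls outside this rule and is given separately. An *Obp* gene is called expressed here where its mean over the 6 libraries was at least 0.5 FPKM (fragments of a gene, scaled to its transcript length and to the fragments mapped in the library), and 22 of the 49 genes met this level.

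The study silenced *Dctn1*, which encodes the largest subunit of the dynactin complex, a partner of the dynein motor in transport along microtubules. In 3 knockdown libraries, the *Act5C*-GAL4 driver, which is active throughout the body, switched on the RNAi construct UAS-*Dctn1*-RNAi (Vienna *Drosophila* Resource Centre ID 3785). The 3 control libraries came from larvae described as the driver only control. The *w1118* strain was the wild-type stock. All libraries came from the whole bodies of female L3b larvae at 96 h, which had fed on grape agar with yeast, and each was made from 12 to 15 larvae. The sources differ on whether the 96 h are counted from egg laying or from hatching. Replicates carry the labels' numbers, which are 1, 2 and 3 for knockdown libraries and 2, 3 and 4 for control libraries. A single RNAi construct was used for the knockdown, so an effect of losing *Dctn1* and an effect of the construct itself cannot be told apart.

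OBPs are small secreted proteins that fold around a pocket for hydrophobic ligands. The best known members are released by support cells into the fluid around the dendrites of olfactory and taste neurons, where they are held to carry or buffer odorants and pheromones on their way to the receptors. Other members are made in tissues without chemosensory neurons, such as the fat body, glia and male reproductive glands. By the pattern of their conserved cysteines, OBPs are divided into the Classic, Minus-C, Plus-C and Dimer subfamilies, the Dimer proteins holding a pair of OBP domains.

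In the libraries as a whole, *Dctn1* (DCTN1-p150 in the table) was at 7.33, 7.96 and 6.85 FPKM in knockdown larvae and at 15.26, 15.2 and 12.49 FPKM in control larvae. Its level was lower in every knockdown library, with a log2 fold change of -0.94 ± 0.13 (SE) and an adjusted p of 0.00737 (limma, Benjamini-Hochberg), which does not pass the fold threshold of the study. All log2 fold changes here are knockdown over control on the log2(FPKM + 0.1) scale. A gene was called changed where its log2 fold change was above 1 or below -1 and its p, adjusted over the 9978 genes tested, was under 0.05. The sum of all FPKM values lay between 94.2% and 98.02% of the mean of the 6 libraries in knockdown and between 102% and 107% in control. The median log2 fold change of all genes tested was 0.16, and it became -0.01 after median-of-ratios scaling, so small differences are also read relative to this shift. The replicates are separate groups of larvae, and in whole bodies fewer cells of a type and less RNA per cell cannot be told apart. The marker genes of the salivary gland, the *Sgs* glue genes, summed to 2771 to 9228 FPKM in knockdown and 8424 to 25402 FPKM in control. The 6 antimicrobial peptide genes summed to 317 to 696 FPKM in knockdown and 17.9 to 382 FPKM in control. The sums overlapped and none of these genes was called. Adjusted p was 0.173 to 0.715 for the *Sgs* genes and 0.193 to 0.667 for the peptide genes (limma, Benjamini-Hochberg).

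A small number of *Obp* genes made up nearly all of the family's signal in the larva. The values of all 49 genes summed to 2114, 1643 and 1304 FPKM in knockdown replicates 1, 2 and 3, and to 1977, 2164 and 1466 FPKM in control replicates 2, 3 and 4. These sums are between 0.178% and 0.278% of the library totals in knockdown and between 0.182% and 0.275% in control, so the groups overlapped. *Obp99b*, *Obp99c*, *Obp56d* and *Obp44a* together held 85.01% to 88.6% of the family's sum in knockdown and 86.8% to 89.8% in control. By subfamily, the 6 Minus-C genes held 75.3% of the sum of the members' means and the 28 Classic genes 21.4%, against 2.17% for the 13 Plus-C genes and 1.11% for the pair of Dimer genes. Expressed members were 4 of the 6 Minus-C genes, both Dimer genes, 13 of the 28 Classic genes and 3 of the 13 Plus-C genes. The share of the family that was expressed, 44.9%, is below the 72.0% of all genes in the table that reached the same level.

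**Figure D1:**
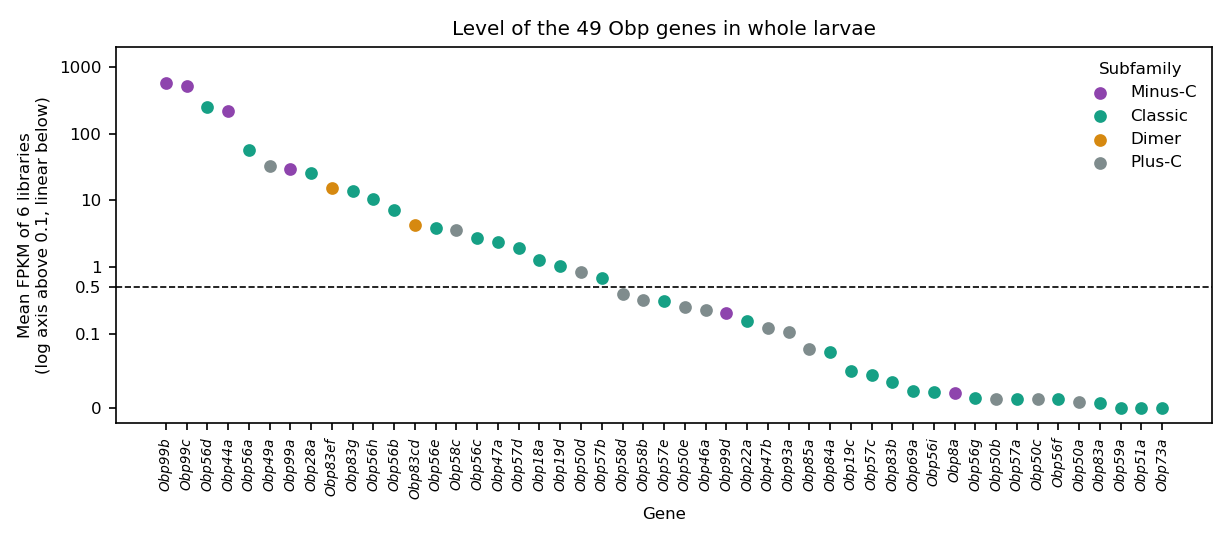
Mean FPKM over the 6 libraries of each of the 49 *Obp* genes, ordered by level and coloured by subfamily. The vertical axis is logarithmic above 0.1 FPKM and linear below it, and the dashed line marks 0.5 FPKM, above which 22 genes lie. Minus-C genes take 3 of the first 4 places, and 3 Classic genes are at 0.

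Of the 27 members below the level for expression, *Obp59a*, *Obp51a* and *Obp73a* were listed at 0 in every library. A further 17 were above 0 in some libraries only, and 7 were above 0 in all libraries with a mean under 0.5 FPKM. In order of level, these 7 were *Obp58d*, *Obp58b*, *Obp57e*, *Obp50e*, *Obp46a*, *Obp99d* and *Obp22a*. Of the 27, 18 had a mean under 0.1 FPKM. Among these 18 were *Obp83a*, *Obp83b* and *Obp69a*, which are known from the adult antenna. *Obp59a*, known for a role in sensing humidity, was among the 3 genes at 0. The annotation in the table assigns a term for reproduction to 6 members, and of these *Obp22a*, *Obp56i*, *Obp56g*, *Obp56f* and *Obp51a* were below the level, whereas *Obp56e* was expressed. The member just inside the level, *Obp57b*, had a mean of 0.683 FPKM, and the one just outside, *Obp58d*, had a mean of 0.400 FPKM. *Obp50b* and *Obp50c* share all 1648 of their exon bases in the annotation and were listed with identical values, so they are not independent entries. *Obp19a* and *Obp19b* are not analysed here.

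**Figure D2:**
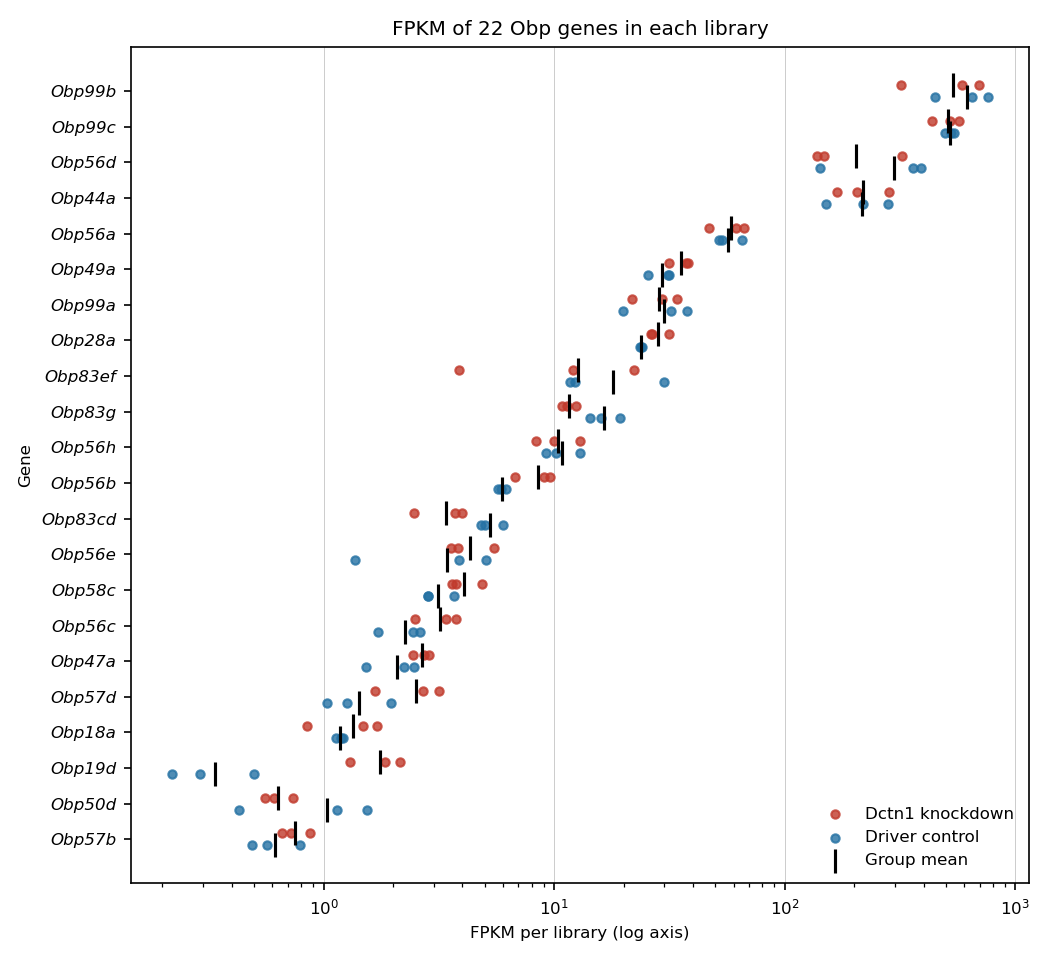
FPKM in each library of the 22 expressed *Obp* genes on a logarithmic axis, with knockdown libraries in red above and control libraries in blue below for each gene, and black ticks for the group means. *Obp19d* has the widest ratio between group means, with 1.3 to 2.14 FPKM in knockdown and 0.22 to 0.5 FPKM in control.

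*Obp19d* was the 1 expressed member called changed. In the whole table, 2.91% of the genes tested were called in either direction and 1.82% were called higher in knockdown, so 1 of 22 is near the background. No member was called lower, where the background was 1.08%, and by the adjusted p alone *Obp19d* was again the 1 member to pass, where it was 6.71%. *Obp19d* is a Classic OBP first described from the adult antenna as a relative of the pheromone-binding proteins, and it lies on the X chromosome (X:20419613-20420979, plus strand, BDGP6.54). Its level was 1.3, 2.14 and 1.84 FPKM in knockdown replicates 1, 2 and 3 and 0.5, 0.29 and 0.22 FPKM in control replicates 2, 3 and 4. The lowest knockdown library was above the highest control library. The means were 1.76 ± 0.426 FPKM in knockdown and 0.337 ± 0.146 FPKM in control (SD, n = 3 each), a ratio of 5.23. The log2 fold change was 2.11 ± 0.29 (SE), with a 95% interval of 1.44 to 2.79 and an adjusted p of 0.00719 (limma, Benjamini-Hochberg). The exact two-sided permutation test gave p = 0.1, the smallest that 3 against 3 libraries allow. After median-of-ratios scaling the log2 fold change was 1.97 with an adjusted p of 0.0221 by the same limma test.

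The level of *Obp19d* was low, at rank 9433 of all genes in the table, and its mean in control was under 0.5 FPKM. It passed the level for expression only through the knockdown libraries. Without any filter on low values it was also called, with an adjusted p of 0.0112 (limma, Benjamini-Hochberg). The files hold no counts, and FPKM values are rounded to 2 decimals. Among the 17 members above 0 in some libraries only, the lowest value above 0 times the transcript length in kilobases had a median of 0.037. If this amount stood for 1 fragment, the values of *Obp19d* would rest on about 30, 50 and 43 fragments in knockdown and on about 12, 7 and 5 fragments in control. The level of 0.5 FPKM would then be about 8.07 fragments for a transcript of the members' median length of 597 bases. Whether such steps are single fragments was not tested, and the depth of the libraries is otherwise unknown.

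The other 21 expressed members did not pass the test, with adjusted p between 0.0759 and 0.960 (limma, Benjamini-Hochberg) and absolute log2 fold changes of at most 0.78. The groups did not overlap for 6 of the 22 expressed members, against 33.5% of all genes tested. Of these 6, *Obp19d*, *Obp56b*, *Obp49a* and *Obp28a* were higher in knockdown, where the background was 28.8%, and *Obp83g* and *Obp83cd* were lower, where it was 4.66%. An unadjusted p under 0.05 was reached by 5 members, *Obp19d*, *Obp57d*, *Obp56b*, *Obp83g* and *Obp83cd*, against 25.3% of all genes tested. The log2 fold change was above 0 in 13 members and below 0 in 9. Its median over the 22 members was 0.08, beside 0.16 over all genes tested, of which 74.2% were above 0. After median-of-ratios scaling 10 were above and 12 below 0, with a median of -0.09 beside -0.01 for all genes. *Obp44a*, *Obp56a* and *Obp18a* changed sign between these scalings.

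**Figure D3:**
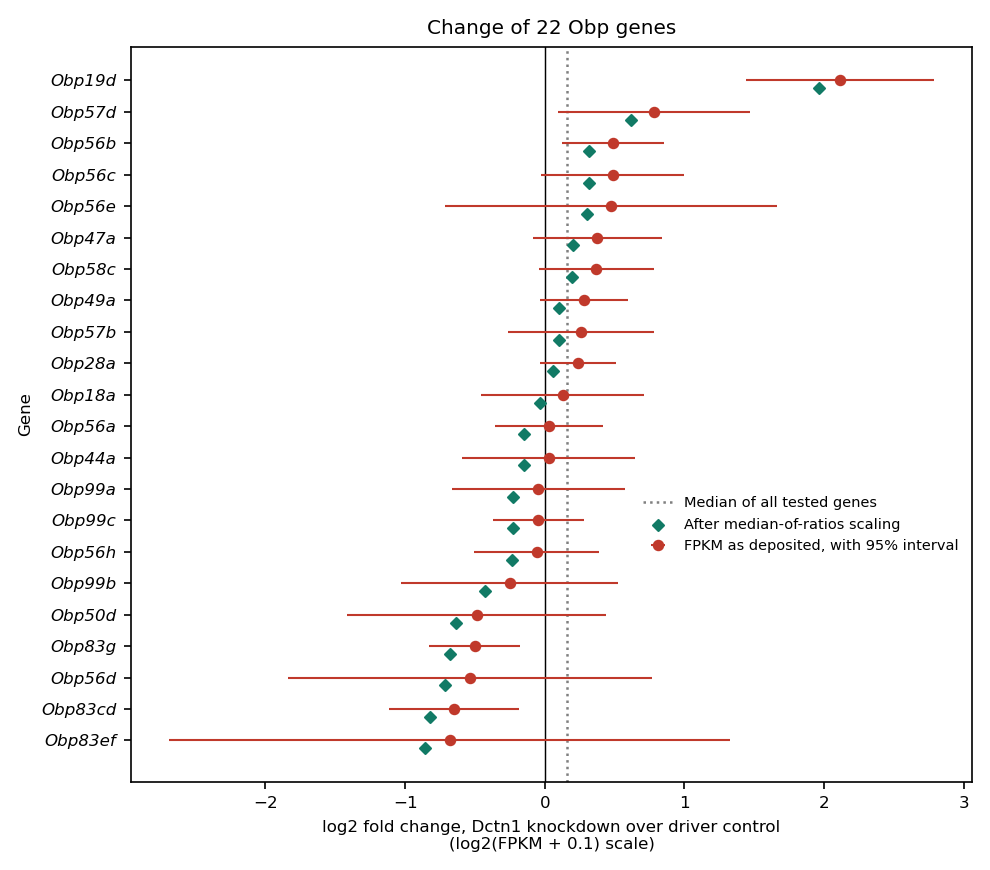
Log2 fold change of the 22 expressed *Obp* genes, knockdown over control, on the log2(FPKM + 0.1) scale. Circles are the values from the deposited FPKM with 95% intervals, diamonds are the values after median-of-ratios scaling, and the dotted line is the median of all genes tested (0.16). *Obp19d* lies at 2.11, and the other 21 genes lie between -0.68 and 0.78.

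The most abundant member, *Obp99b*, is a Minus-C gene known in adults for sex-biased expression in the fat body of the head. It was at 698.47, 589.46 and 319.73 FPKM in knockdown and at 645.81, 760.7 and 450.27 FPKM in control. Knockdown replicate 3 and control replicate 4 were the lowest of their groups, and the groups overlapped widely. The log2 fold change was -0.25 ± 0.33 (SE), with an adjusted p of 0.666 (limma, Benjamini-Hochberg). Its neighbour *Obp99c*, also Minus-C, was at 569.59, 519.62 and 435.94 FPKM in knockdown and at 494.7, 543.15 and 528.44 FPKM in control. It was the steadiest of the 4 most abundant members, with a highest library 1.31 times the lowest. Its log2 fold change of -0.05 had a 95% interval of -0.37 to 0.28, which is narrower than that of *Obp99b*. The order of *Obp99b* (rank 234 in the table) and *Obp99c* (rank 247) turned between libraries and their ranges overlapped.

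*Obp56d*, a Classic gene on chromosome 2R, was at 323.3, 137.57 and 147.81 FPKM in knockdown and at 388.89, 360.27 and 142.4 FPKM in control. One knockdown library was high and the control replicate 4 was low, so that the groups crossed. The log2 fold change was -0.53 ± 0.52 (SE), with an adjusted p of 0.560 (limma, Benjamini-Hochberg). *Obp44a*, a Minus-C gene known from glia of the nervous system, was at 282.23, 169.03 and 204.7 FPKM in knockdown and at 218.74, 279.45 and 150.82 FPKM in control. Its means, 219 ± 57.9 FPKM in knockdown and 216 ± 64.3 FPKM in control (SD, n = 3 each), differed by far less than the spread between libraries, and the log2 fold change of 0.03 became -0.15 after median-of-ratios scaling. The annotation places 205 of its 1076 exon bases (19.1%) opposite exons of *Pabp2*, and whether the counting used strand is not stated. The sums of the 7 glial marker genes did not overlap, at 94.5 to 97.2 FPKM in knockdown and 81.6 to 93.2 FPKM in control. Their median log2 fold change was 0.32, and 0.15 after median-of-ratios scaling. Of the 7, *Gli* alone had a log2 fold change below 0 (-0.31). None was called, and *Eaat1* alone passed by the adjusted p, as did 6.71% of all genes tested. Its log2 fold change was 0.70 with an adjusted p of 0.0184, and the adjusted p was 0.101 after median-of-ratios scaling (limma, Benjamini-Hochberg). The fourth expressed Minus-C gene, *Obp99a*, was at 34.08, 29.38 and 21.84 FPKM in knockdown and at 37.63, 32.03 and 19.95 FPKM in control, with a log2 fold change of -0.05. As in *Obp99b*, its lowest libraries were knockdown replicate 3 and control replicate 4.

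The Dimer genes *Obp83ef* and *Obp83cd* and the Classic gene *Obp83g* lie together on chromosome 3R (3R:6108134-6109733 for *Obp83cd*, 3R:6109642-6111034 for *Obp83ef* and 3R:6111671-6112302 for *Obp83g*), and all had a log2 fold change below 0. *Obp83cd* and *Obp83ef* overlap by 92 exon bases on opposite strands (10.2% of each), and whether reads there were told apart by strand is not stated. *Obp83g* was at 10.79, 12.44 and 11.4 FPKM in knockdown and at 15.97, 14.26 and 19.26 FPKM in control. Every knockdown library was below every control library, and the log2 fold change was -0.50 ± 0.14 (SE), with an adjusted p of 0.0759 (limma, Benjamini-Hochberg). *Obp83cd* was at 3.97, 3.7 and 2.47 FPKM in knockdown and at 5.01, 6 and 4.81 FPKM in control. Its groups were likewise apart, with a log2 fold change of -0.65 ± 0.20 (SE) and an adjusted p of 0.0978 by limma with Benjamini-Hochberg adjustment. After median-of-ratios scaling the adjusted p was 0.101 for *Obp83g* and 0.0605 for *Obp83cd* in the same limma test. The exact permutation test gave 0.1 for both genes. The antennal genes *Obp83a* and *Obp83b* of the same cytological band were under 0.1 FPKM.

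**Figure D4:**
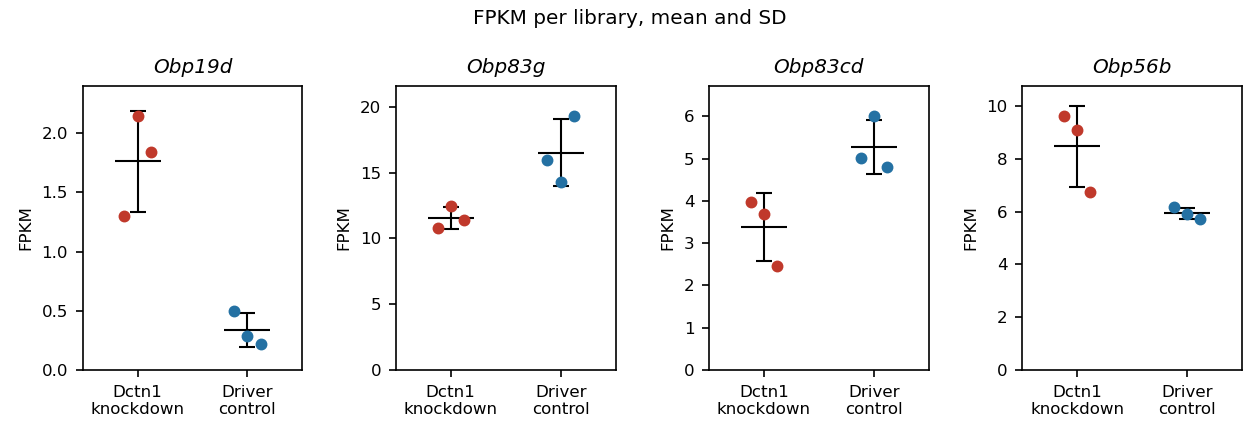
FPKM per library of *Obp19d*, *Obp83g*, *Obp83cd* and *Obp56b*, in knockdown (left, red) and control (right, blue), with the mean (horizontal line) and SD (bars) of 3 libraries each. Axes start at 0 and differ between panels. The groups do not overlap in any of the 4 genes, and *Obp19d* alone was called changed.

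*Obp83ef* had the highest residual SD of the 22 expressed members, at percentile 98.1 of all genes tested, and its highest library was 7.76 times the lowest. It was at 22.1, 3.88 and 12.13 FPKM in knockdown and at 12.36, 30.09 and 11.74 FPKM in control. Knockdown replicate 2 was far below the rest and control replicate 3 was the highest. The log2 fold change was -0.68 ± 0.77 (SE), with an adjusted p of 0.622 (limma, Benjamini-Hochberg), and without knockdown replicate 2 it was 0.00214. The same 2 libraries stood at the ends of the range for the fat body gene *Fbp1*, the receptor for larval serum protein, which was at 1414.97, 47.31 and 638.62 FPKM in knockdown and at 2233.48, 4093.75 and 1199.15 FPKM in control. *Fbp1* was the 1 of 7 fat body markers with both of these extremes. *Fbp2*, for one, was at 1728.73, 1674.41 and 1218.02 FPKM in knockdown and at 423.66, 855.19 and 893.27 FPKM in control, and 3 of the 7 had log2 fold changes above 0. Of the 6 glue genes, *Sgs5*, *Sgs7* and *Sgs8* had both extremes, 5 had their lowest value in knockdown replicate 2, and *Sgs4* alone had a log2 fold change above 0 (0.44). *Fbp1* and the glue genes are known to be switched on late in the last larval instar, under the control of ecdysone. The sum of the 7 fat body markers, which include *Fbp1*, was 21709 to 26560 FPKM in knockdown and 21540 to 22543 FPKM in control. The part of these markers in the values of *Obp83ef* was not tested. Over all genes tested, the deviations of knockdown replicate 2 and control replicate 3 from their group means correlated at -0.62. Opposite deviations in these 2 libraries were thus not particular to the genes named here. The share of all genes with both extremes was not computed.

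**Figure D5:**
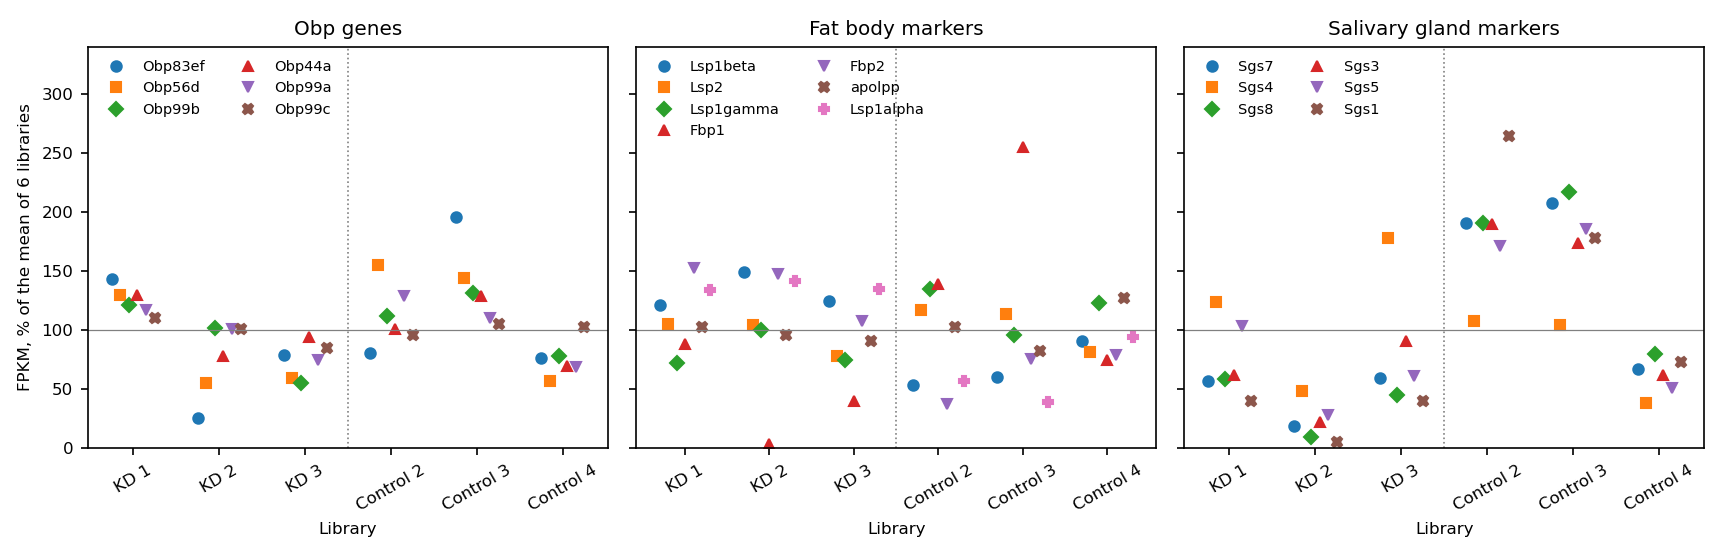
FPKM in each library as a percentage of the gene's mean over the 6 libraries, for 6 *Obp* genes (left panel), 7 fat body markers (middle panel) and 6 salivary gland markers (right panel), with knockdown (KD) libraries left of the dotted line. *Obp83ef*, *Fbp1*, *Sgs5*, *Sgs7* and *Sgs8* are lowest in knockdown replicate 2 and highest in control replicate 3, which the other 6 fat body and 3 salivary gland markers are not, while *Obp99c* stays closest to 100% among the 6 *Obp* genes.

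The spread between libraries was large in this family. Of the 22 expressed members, 17 had a residual SD above the median of all genes tested (0.196 on the log2 scale), and 6 lay above the 90th percentile. In knockdown, replicate 3 held the lowest value of its group in 13 of the 22 members, and replicate 1 the highest in 11. In control, replicate 4 held the lowest value in 14 members and replicate 2 the highest in 11. The size factors of the median-of-ratios scaling were 1.1175, 1.043 and 1.034 for knockdown replicates 1, 2 and 3. For control replicates 2, 3 and 4 they were 0.979, 0.993 and 0.854. Their order within the groups matched these counts except in control, where replicate 3 had the highest factor. The share of all genes tested with the same orders was not computed, so the counts are not shown to be particular to this family.

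The *Obp56* cluster on chromosome 2R had 6 expressed members of 9 and held 18.7% of the sum of the members' means. *Obp56a*, next in level to *Obp56d*, was at 66.67, 61.59 and 46.77 FPKM in knockdown and at 65.08, 53.33 and 52.08 FPKM in control, with a log2 fold change of 0.03. *Obp56h*, which has been implicated in adult mating behaviour, was at 9.94, 12.98 and 8.33 FPKM in knockdown and at 12.9, 9.24 and 10.19 FPKM in control, with a log2 fold change of -0.06. The groups overlapped in both genes. *Obp56b* was at 9.61, 9.08 and 6.74 FPKM in knockdown and at 6.17, 5.91 and 5.73 FPKM in control. Here each knockdown library was above each control library, with a log2 fold change of 0.49 ± 0.16 (SE) and an adjusted p of 0.107 (limma, Benjamini-Hochberg). *Obp56c* was at 3.38, 3.76 and 2.48 FPKM in knockdown and at 2.63, 2.44 and 1.72 FPKM in control. Its log2 fold change was also 0.49, with 1 knockdown library inside the control range and an adjusted p of 0.216 in the same limma test. *Obp56e* was at 5.48, 3.84 and 3.58 FPKM in knockdown and at 1.37, 5.08 and 3.85 FPKM in control. A single low library, control replicate 2, set it apart: the log2 fold change of 0.48 ± 0.49 (SE) became -0.06 without that library. An antisense RNA, asRNA:CR44509, lies opposite 84.4% of its exon bases.

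Members known from taste or smell in the adult were also present. *Obp49a*, a Plus-C protein that binds bitter compounds in adult taste sensilla, was at 31.6, 38.18 and 37.17 FPKM in knockdown and at 31.27, 25.58 and 31.35 FPKM in control. The groups were apart by a narrow margin, with a log2 fold change of 0.28 ± 0.14 (SE) and an adjusted p of 0.246 (limma, Benjamini-Hochberg). *Obp28a*, an OBP of antennal sensilla in the adult, was at 26.56, 31.55 and 26.26 FPKM in knockdown and at 23.98, 23.55 and 23.79 FPKM in control. Control libraries were very close together and below all knockdown libraries, and the log2 fold change was 0.24 ± 0.12 (SE) with an adjusted p of 0.255 by the same limma test. After median-of-ratios scaling these differences were 0.10 for *Obp49a* and 0.06 for *Obp28a*.

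*Obp57d*, known with *Obp57e* for taste responses to fatty acids of host fruit, was at 2.7, 1.67 and 3.17 FPKM in knockdown and at 1.97, 1.26 and 1.03 FPKM in control. One knockdown library was within the control range, and the log2 fold change was 0.78 ± 0.30 (SE) with an adjusted p of 0.152 (limma, Benjamini-Hochberg). The entry is uncertain, since in the annotation all 1488 of its exon bases are shared on the same strand with the cuticle protein gene *Cpr57A*, and the table describes its row with cuticle terms. *Cpr57A* was at 220.91, 142.81 and 170.7 FPKM in knockdown and at 180.49, 113.6 and 108.16 FPKM in control, so the values of *Obp57d* were 1.17% to 1.86% of those of *Cpr57A* in knockdown and 0.952% to 1.11% in control. *Obp57e* itself had a mean of 0.313 FPKM. *Obp57b*, of the same cluster, was at 0.87, 0.66 and 0.72 FPKM in knockdown and at 0.79, 0.57 and 0.49 FPKM in control, with overlapping groups and a log2 fold change of 0.26.

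The remaining expressed members were all under 5 FPKM and their groups overlapped. The Plus-C gene *Obp58c* was at 3.74, 4.86 and 3.61 FPKM in knockdown and at 3.69, 2.83 and 2.85 FPKM in control, a log2 fold change of 0.37. *Obp47a* was at 2.72, 2.87 and 2.44 FPKM in knockdown and at 2.23, 2.46 and 1.53 FPKM in control, a log2 fold change of 0.38. In both genes most knockdown libraries were above the control libraries. *Obp18a* was at 1.48, 1.71 and 0.85 FPKM in knockdown and at 1.19, 1.13 and 1.21 FPKM in control, and its log2 fold change of 0.13 became -0.04 after median-of-ratios scaling. *Obp50d* was at 0.61, 0.56 and 0.74 FPKM in knockdown and at 1.14, 1.55 and 0.43 FPKM in control, a log2 fold change of -0.49 ± 0.40 (SE). The lowest and the highest library of *Obp50d* were both controls.

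The receptors and other proteins that work with OBPs were mostly below the same level in whole larvae. Only 1 of 58 odorant receptor genes (1.72%), 1 of 58 gustatory receptor genes, 2 of 58 ionotropic receptor genes (3.45%) and 1 of 18 *CheA* and *CheB* genes reached a mean of 0.5 FPKM. None of these 5 was called, with adjusted p between 0.161 for *Ir76a* and 0.761 for *CheB42c* (limma, Benjamini-Hochberg). *Ir76a* was the 1 gene with an unadjusted p under 0.05. Over all genes tested, 2.91% were called and 25.3% had an unadjusted p under 0.05. *Orco*, the coreceptor of the odorant receptors, was at 0.25, 0.11 and 0.16 FPKM in knockdown and at 0.19, 0.19 and 0.24 FPKM in control. *lush*, the OBP that acts in sensing the male pheromone cis-vaccenyl acetate, was at 0.13, 0.11 and 0 FPKM in knockdown and at 0, 0.1 and 0.17 FPKM in control. Both genes were thus near 0 with overlapping groups. *Snmp1*, a membrane protein of pheromone-sensing neurons and their support cells, was at 4.16, 4.98 and 4.38 FPKM in knockdown and at 2.79, 2.12 and 3.61 FPKM in control. Its knockdown libraries were all above the control libraries, as in 28.8% of all genes tested. With a log2 fold change of 0.68 ± 0.20 (SE) the adjusted p was 0.0910, and it was 0.319 after median-of-ratios scaling (limma, Benjamini-Hochberg). Its relative *Snmp2* was at 1.24, 1.25 and 0.96 FPKM in knockdown and at 1.04, 0.48 and 0.79 FPKM in control, with overlapping groups and an adjusted p of 0.236 in the same limma test.

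The OS-D family holds small chemosensory proteins unrelated in fold to OBPs, and 3 of its genes were chosen by name. Whether the table holds further members was not examined. Of the 3, *EbpIII* rose in knockdown. It encodes a protein first found in the ejaculatory bulb of adult males, and was at 88.12, 122.45 and 88.96 FPKM in knockdown and at 21.14, 21.89 and 18.3 FPKM in control. The groups were far apart, with means of 99.8 ± 19.6 FPKM in knockdown and 20.4 ± 1.89 FPKM in control (SD, n = 3 each). The log2 fold change was 2.27 ± 0.16 (SE) with an adjusted p of 0.00146 (limma, Benjamini-Hochberg), and 2.09 after median-of-ratios scaling. *EbpIII* was thus called higher, as were 1.82% of all genes tested. Groups apart with knockdown higher were found in 28.8% of all genes tested, *EbpIII* among them. Its relative *Phk-3*, known to be induced by viral infection, was at 230.69, 198.34 and 211.62 FPKM in knockdown and at 182.89, 237.38 and 190.79 FPKM in control, and did not pass the test (log2 fold change 0.08). The antennal gene *a10* was at 0, 0.13 and 0.13 FPKM in knockdown and at 0 in every control library.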

How the data were processed

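RNA-seq was analysed from 3 *Dctn1* knockdown and 3 driver only control libraries of whole female larvae, with groups and replicate numbers from the sample labels. Per the methods, the authors used SOAPnuke to filter the reads, HISAT2 to map them and RSEM for quantification. The submitters' processing notes name StringTie and Cufflinks as well, and which of these tools made the FPKM values that the authors deposited is not settled, nor is how reads in shared exons (*Obp57d*, *Obp50b*) were divided. Versions and the genome build are not given in the sources used here. The deposited FPKM values are rounded to 2 decimals and hold no counts, so no counting interval was computed. FPKM are relative to each library's own total, so an abundant gene that differs shifts the others.

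A limma model (version 3.58.1, R version 4.3.3, condition only, trended and robust variance) was fitted to log2(FPKM + 0.1) of 9978 genes with a mean of at least 0.5 FPKM. Benjamini-Hochberg adjustment ran over all of them. The fit was tested on simulated data. Exact permutation tests were two-sided. Positions, exon overlaps and transcript lengths come from the BDGP6.54 annotation (Ensembl release 115), to which all 49 members were matched by gene symbol. For all 49 the gene ID led to the same coordinates. The file itself gives no coordinates, and the build that the authors used may differ. Subfamilies were assigned from general knowledge.

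The members, gene lists and tests were chosen with earlier results of these data known. All expressed members, the members next to the level of 0.5 FPKM, *lush*, 3 OS-D genes and *Dctn1* were named by rule. Marker genes, *Orco*, the *Snmp* genes, *Cpr57A* and *Pabp2* were added because they bear on a member. Alternatives tried were a pseudocount of 1 or 0.01, no filter, a mean of at least 5 FPKM, median-of-ratios and quantile scaling, a plain variance estimate, a replicate block, leaving out each library, and other levels for expression. Python version 3.11.15, pandas version 2.3.3, SciPy version 1.17.1 and Matplotlib version 3.10.9 were used.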

Additional observations from a re-analysis of the deposited data

How the results depend on the processing

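*Obp19d* was called in each of the 13 alternatives in which it was tested, with log2 fold changes of 1.04 (pseudocount of 1) to 2.40 and adjusted p of 0.00669 to 0.0337 (limma, Benjamini-Hochberg). These alternatives reuse the same libraries, so they are not independent support. All but the fit without a filter kept the level of 0.5 FPKM, which *Obp19d* passed only through the knockdown libraries. A mean of at least 5 FPKM left 12 members, not including *Obp19d*, and 0 called. Of 298 alternative values for the 22 members, 272 kept their direction and side of the threshold and 24, in 9 members, changed sign without being called. For changes in sign, median-of-ratios scaling gave -0.15 for *Obp44a*, -0.15 for *Obp56a* and -0.037 for *Obp18a*, and quantile scaling gave 0.061 for *Obp99c*, -0.024 for *Obp56a* and -0.066 for *Obp18a*. Leaving out each library in turn gave log2 fold changes of -0.48 to 0.085 for *Obp99b*, -0.13 to 0.060 for *Obp99c*, -0.21 to 0.23 for *Obp44a*, -0.075 to 0.18 for *Obp56a*, -0.31 to 0.15 for *Obp99a*, -1.24 to 0.00214 for *Obp83ef*, -0.23 to 0.089 for *Obp56h*, -0.065 to 0.84 for *Obp56e* and -0.059 to 0.41 for *Obp18a*. For *Dctn1* the log2 fold change was -1.12 with either scaling and -1.04 to -0.89 with a library left out, so that it passed the fold threshold in some settings. Over all genes, 182 were called higher and 108 lower, against 114 and 120 with median-of-ratios scaling. Without a filter, 2 gustatory receptor genes, *Gr94a* and *Gr98a*, were called, both under 0.5 FPKM on average. Expressed members numbered 20 at a mean of 1 FPKM, 31 at 0.1 FPKM and 19 with 0.5 FPKM required in every library.

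Replicate numbers 2 and 3 occur in both groups. Deviations from the group means correlated at 0.402 for the libraries numbered 2 and at 0.137 for those numbered 3, against -0.62 to 0.628 between libraries of different numbers, so the numbers are not shown to pair the libraries. Numbers 1 and 4 occur in 1 group only. A fit with the replicate number as a block therefore takes the change from the libraries numbered 2 and 3 alone. That fit leaves 1 residual degree of freedom, so the spread of each single gene is barely measured. The SE was 0.14 for *Obp56d* and 0.13 for *Obp83ef* with the block, against 0.52 and 0.77 without it. In that fit 3 of 22 members were called (*Obp19d*, *Obp56d* at -1.39 and *Obp83ef* at -1.48), where 388 of all 9978 genes (3.89%) were called and 200 of them lower. Its log2 fold changes were -0.41 for *Obp44a*, -0.13 for *Obp56a* and -1.03 for *Dctn1*. The cause was not tested for any of these changes. FPKM without counts limit the low members most, since *Obp19d* may rest on few fragments in control.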
